A study of Mus musculus with 4 samples.

Results

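The 9 genes described here, P2ry12, P2ry13, Cx3cr1, Csf1r, Siglech, Gpr34, Selplg, Tmem119 and Sall1, form the set usually read as the homeostatic signature of microglia. They were taken by gene symbol from the 32285 genes of the deposited feature list, and each symbol matched 1 gene. The set holds cell-surface receptors and adhesion proteins, 1 transmembrane protein of poorly known function and 1 transcription factor; CSF1R is a receptor tyrosine kinase, and none of the 9 is a metabolic enzyme. RNA was counted in single nuclei from brain tissue sections of female 5XFAD mice. This line has human amyloid precursor protein and presenilin 1 transgenes carrying familial Alzheimer mutations under the neuronal Thy1 promoter. By the design text the mice were 7 to 10 weeks old, and a mouse was given 6550000000 extracellular vesicles (EVs) into the vein. The vesicles were engineered from the lipids of adipocyte EVs and were low (PE-low EV group) or high (PE-high EV group) in phosphatidylethanolamine (PE). Each group had 2 libraries and each library pooled 2 mice, so that n = 2 per group, and nuclei of a library are not replicates. Strings of 4 values below follow the order PE-low EV replicate 1, PE-low EV replicate 2, PE-high EV replicate 1, PE-high EV replicate 2. Both groups carried the transgenes and both received vesicles, so no comparison below is against an untreated or wild-type brain, which was not analysed here.

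Microglia are the resident macrophages of the brain parenchyma. In their resting state they survey the tissue with motile processes, sense nucleotides and chemokines released by neurons, and depend on signals through the CSF1 receptor and on transforming growth factor beta to keep their identity. Transcripts of the homeostatic receptors fall in many models of amyloid pathology and inflammation. Border-associated macrophages of the meninges and vessels share the CSF1 receptor with microglia but carry little P2ry12, Tmem119 or Sall1.

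Promoters of 5 of the 9 genes, P2ry12, P2ry13, Cx3cr1, Siglech and Sall1, were read from the RefSeq table of GRCm38.p6. A promoter was taken as 250 bases before to 50 after the RefSeq gene start, and distances are from that start. It can differ from the GENCODE start used for the gene positions given further below. The Cx3cr1 promoter lies inside the GENCODE gene, and the P2ry12 promoter lies wholly before it. No promoter of Tmem119, Csf1r, Gpr34 or Selplg was read, which does not show that the full RefSeq table lacks one. The sequences below are shown because the levels described next rest on these receptor genes, and because PU.1, an ETS factor, is a main regulator of myeloid genes. Capitals mark GAGGAA, the core of a PU.1-type site, or GGAAGT, a general ETS-type core, each searched on both strands (as TTCCTC and ACTTCC on the other strand). P2ry12, chr3:59262936-59263235, minus strand, has GGAAGT starting 51 bases before the gene start; P2ry13, chr3:59210833-59211132, minus strand, has GAGGAA starting 48 bases before it; Siglech, chr7:55767934-55768233, plus strand, has TTCCTC and ACTTCC starting 4 and 156 bases before it; and Cx3cr1, chr9:120068247-120068546, minus strand, has neither.
P2ry12: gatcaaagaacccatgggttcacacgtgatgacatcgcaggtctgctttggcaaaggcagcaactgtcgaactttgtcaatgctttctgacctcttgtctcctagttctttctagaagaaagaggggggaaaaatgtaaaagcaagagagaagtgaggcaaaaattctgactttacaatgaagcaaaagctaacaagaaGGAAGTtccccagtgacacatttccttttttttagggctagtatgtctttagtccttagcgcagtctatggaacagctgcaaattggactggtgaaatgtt
P2ry13: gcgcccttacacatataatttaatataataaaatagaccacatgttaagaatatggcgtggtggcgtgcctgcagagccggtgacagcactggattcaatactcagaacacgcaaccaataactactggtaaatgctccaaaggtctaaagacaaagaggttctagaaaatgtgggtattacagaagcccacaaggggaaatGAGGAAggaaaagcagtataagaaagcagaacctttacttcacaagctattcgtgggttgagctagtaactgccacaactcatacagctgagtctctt
Siglech: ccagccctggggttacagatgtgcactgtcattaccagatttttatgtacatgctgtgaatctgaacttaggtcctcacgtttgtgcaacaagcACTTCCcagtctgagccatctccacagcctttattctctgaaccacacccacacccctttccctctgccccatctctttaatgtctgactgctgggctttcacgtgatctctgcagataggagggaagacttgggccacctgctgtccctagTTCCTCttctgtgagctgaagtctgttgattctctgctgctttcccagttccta
Cx3cr1: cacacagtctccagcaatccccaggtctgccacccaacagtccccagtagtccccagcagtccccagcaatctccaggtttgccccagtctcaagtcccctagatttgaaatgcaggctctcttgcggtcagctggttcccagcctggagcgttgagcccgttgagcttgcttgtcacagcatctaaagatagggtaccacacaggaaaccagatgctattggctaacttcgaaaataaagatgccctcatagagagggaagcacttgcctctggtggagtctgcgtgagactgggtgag
One of the 3 Sall1 promoters held GGAAGT. Of the 32851 promoters of 300 bases that were read, 28.3% held GAGGAA and 23.8% held GGAAGT on either strand. A match in 4 of the 5 members read thus describes these letters and does not mark a binding site.

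The libraries held 1275624 to 1760811 barcodes and 29472021 to 43272337 unique molecular identifiers (UMIs), and 8732 to 13915 barcodes per library were called as nuclei. About 50.4% to 50.9% of the UMIs lay in called nuclei, and any pair of libraries shared 27 to 53 called barcodes, at most 0.447% of the smaller library. Clustering was run without the 9 genes and without the mitochondrial genes. It gave 1 microglia-like cluster of 2005 nuclei, with 12 of 14 fixed microglial markers raised and Inpp5d, Runx1 and Fyb in the lead. The cluster held 537, 390, 614 and 464 nuclei in the 4 libraries, or 4.29% to 4.71% of called nuclei after the gene filters. No doublet caller was run and none were removed. A cut independent of clustering asked for at least 3 UMIs of microglial markers, and for more of them than of any other marker list. Of the nuclei it found, 97.6% to 100% lay in the cluster at a mitochondrial limit of 15%. The cut took 278 of 503, 263 of 366, 279 of 516 and 241 of 426 nuclei of the cluster at that limit. At a limit of 3% it took 10 of 61, 27 of 50, 2 of 18 and 16 of 45. Many nuclei of the cluster thus did not meet the cut, and which condition they failed was not counted.

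Every member was far higher in microglia-like nuclei than in any other named class with over 100 nuclei. Levels are given as UMIs of a gene per 1000000 UMIs (CPM), summed over all nuclei of a class in a library, with no mitochondrial limit; the classes were named after clustering, so these levels describe and are not tested. Values of different genes on this scale are not compared with each other, because the counts do not say how much of each comes from introns.

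Among the purinergic receptors, P2ry12, the ADP receptor that steers microglial processes to injury, lay at 492, 527, 417 and 427 CPM (466 ± 52.6, SD, n = 4). Both PE-low EV values were above both PE-high EV values, as for 18.7% of genes tested at the 15% limit, and the next class, inhibitory neurons at 40.2 ± 2.30 CPM, was 11.6 times lower. P2ry13, a second ADP receptor, lay at 40.4, 77.1, 40.0 and 75.4 CPM (58.2 ± 20.8), 16.6 times the next level. Replicate 2 was the higher in both groups, and the groups overlapped.

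Cx3cr1, the receptor for the neuronal chemokine fractalkine, lay at 441, 378, 354 and 296 CPM (367 ± 59.9), and Csf1r, the receptor for CSF1 and interleukin 34 on which microglial survival depends, at 337, 414, 373 and 313 CPM (359 ± 43.9). Oligodendrocytes came next for Cx3cr1 at 21.8 ± 1.7 CPM, 16.9 times lower. For Csf1r the next named class was vascular cells at 14.5 ± 2.55 CPM, and an unnamed class led by mitochondrial genes stood at 26.8 ± 2.46 CPM. The 4 libraries overlapped between the groups for Csf1r and not for Cx3cr1, where both PE-low EV values were the higher, again as for 18.7% of genes at the 15% limit.

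Siglech, a sialic acid-binding lectin of microglia and plasmacytoid dendritic cells, showed the widest gap of the 9, at 441, 499, 392 and 464 CPM in microglia-like nuclei (449 ± 44.8) and 1.81 ± 0.635 CPM in excitatory neurons; its next level, in the unnamed class, was 50.4 times lower. Gpr34, a receptor for lysophosphatidylserine, lay at 244, 180, 190 and 200 CPM (203 ± 28.3), and Selplg, the selectin ligand PSGL-1, at 281, 314, 259 and 366 CPM (305 ± 46.3). The groups overlapped for all 3 genes.

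Tmem119, a membrane protein that marks parenchymal microglia, lay at 70.2, 74.6, 54.8 and 78.3 CPM (69.5 ± 10.3), 9.39 times the next level. Sall1, the zinc finger factor that keeps microglial identity, lay at 126, 121, 105 and 128 CPM (120 ± 10.2) and had the narrowest gap of the 9, 7.29 times its level in oligodendrocytes. Oligodendrocytes at 16.5 ± 2.72 CPM and astrocytes at 15.9 ± 3.92 CPM held 2.05 ± 0.561 and 1.94 ± 0.380 times the Sall1 level of near-empty barcodes, while excitatory neurons held 0.103 ± 0.00701 times it. In the small ependymal class, 89 nuclei in all, 7 Sall1 and 12 Cx3cr1 UMIs gave 66.7 ± 69.6 and 90.9 ± 59.5 CPM; the SD exceeded the mean for Sall1 and was below it for Cx3cr1.

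**Figure D1:**
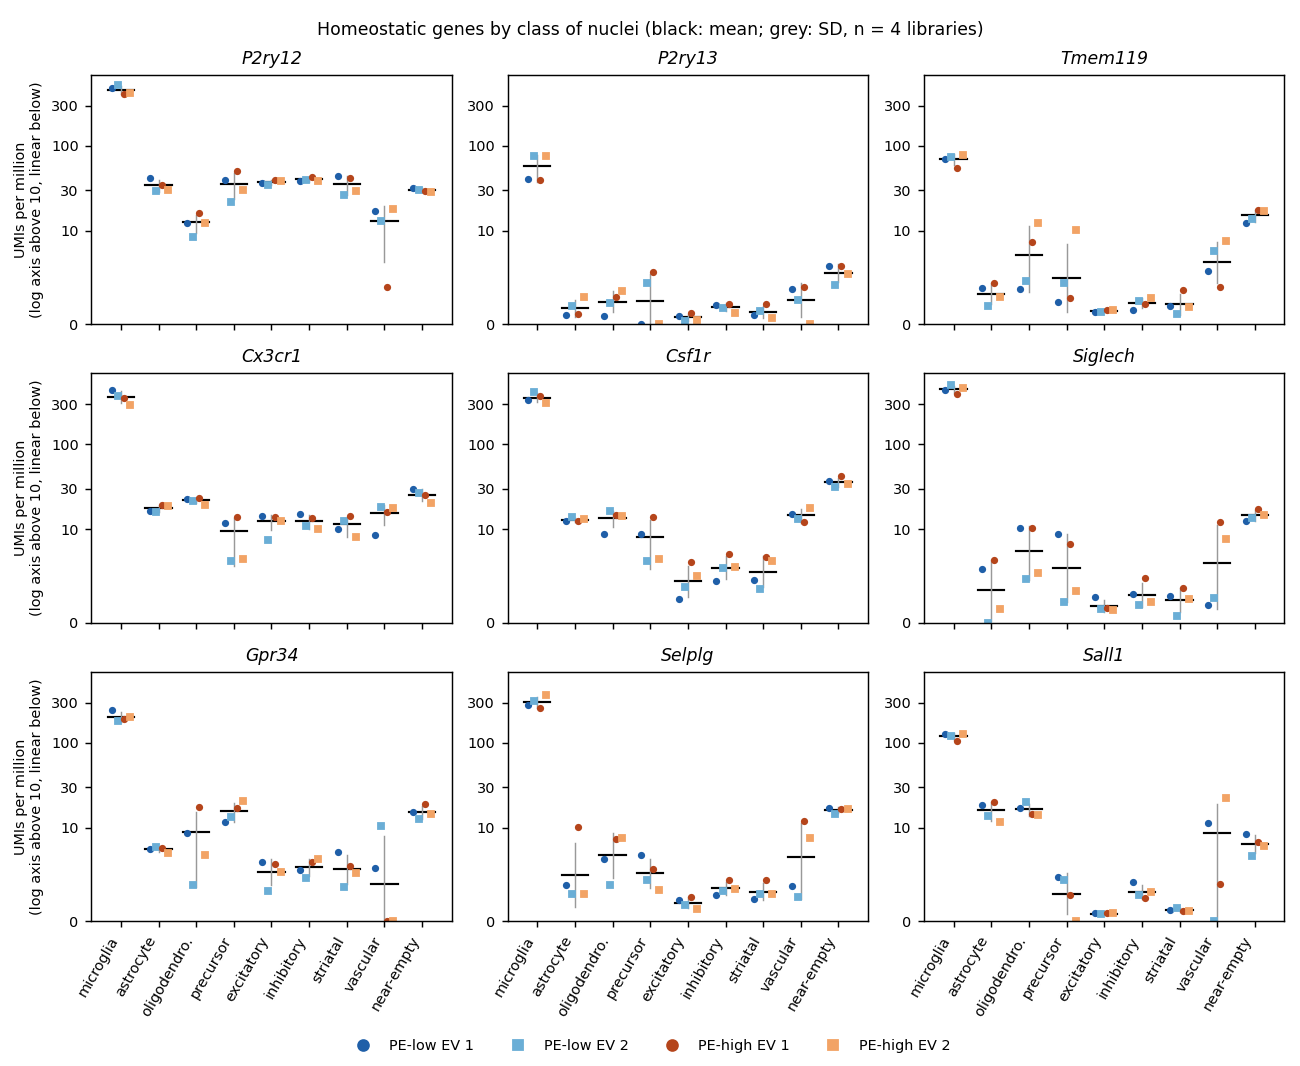
Level of each of the 9 genes in UMIs per 1000000 (log axis above 10, linear below) by class of nuclei and in near-empty barcodes; points are the 4 libraries, black lines their mean and grey lines the SD. Microglia-like points lie above all other plotted points for each gene, and the P2ry12 means of neurons, astrocytes and oligodendrocyte precursors lie above the near-empty mean.

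Free RNA was read from near-empty barcodes, those ranked 45000 to 90000 by UMIs in each library. The microglia-like level over the near-empty level was highest for Siglech, 22.6 to 37.1 times across libraries, and lowest for Tmem119, 3.13 to 5.73 times; P2ry12 had 14.0 to 17.5 times, Cx3cr1 14.0 to 14.7, Csf1r 8.87 to 13.2, Selplg 15.5 to 22.1, Gpr34 10.0 to 16.2, Sall1 12.4 to 17.4 and P2ry13 6.40 to 18.5 times. The make-up of the set thus differed between nuclei and free RNA: Tmem119 gave 2.51% to 3.34% of the members' UMIs in microglia-like nuclei and 7.15% to 10.6% in near-empty barcodes, the near-empty share being the higher in all 4 libraries. Over whole libraries, 75.4% to 78.6% of Tmem119 UMIs lay outside called nuclei, against 37.4% to 40.5% for P2ry12.

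In excitatory neurons, 8 of the 9 genes lay at 0.0964 (Tmem119) to 0.491 (Cx3cr1) times their near-empty level, and P2ry12 lay at 1.23 ± 0.125 times (1.12 to 1.36 over the 4 libraries). P2ry12 (GRCm38, chr3:59216272-59262871, minus strand) and P2ry13 (chr3:59207892-59210882, minus strand) both lie inside Med12l, a Mediator-related gene on the plus strand (chr3:59005825-59318682), and exons of P2ry12 overlap exons of Med12l. Med12l lay at 173 ± 14.0 CPM in excitatory neurons, 129 ± 16.8 in astrocytes, 160 ± 19.4 in oligodendrocyte precursors, 29.9 ± 4.66 in oligodendrocytes and 283 ± 40.4 in microglia-like nuclei. P2ry12 in the first 4 of these classes lay at 37.1 ± 2.33, 34.2 ± 5.81, 35.7 ± 12.2 and 12.5 ± 2.78 CPM. Per 100 Med12l UMIs, P2ry12 had 21.6 ± 2.56 UMIs in excitatory neurons, 27.2 ± 7.58 in astrocytes, 23.2 ± 10.8 in oligodendrocyte precursors, 77.9 ± 16.1 in near-empty barcodes and 167 ± 25.6 in microglia-like nuclei. Over 28 sums of class and library outside microglia, which share libraries and depth and fall into a low group (oligodendrocytes, vascular cells) and a high group, P2ry12 and Med12l correlated with Pearson's r of 0.72 and Spearman's rho of 0.54, and P2ry13 and Med12l with r of -0.36. Whether the counting used strand is not given in the sources used here, so reads of P2ry12 and its partner cannot be told apart if strand was not used, and the P2ry12 counts outside microglia are uncertain for that reason.

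**Figure D2:**
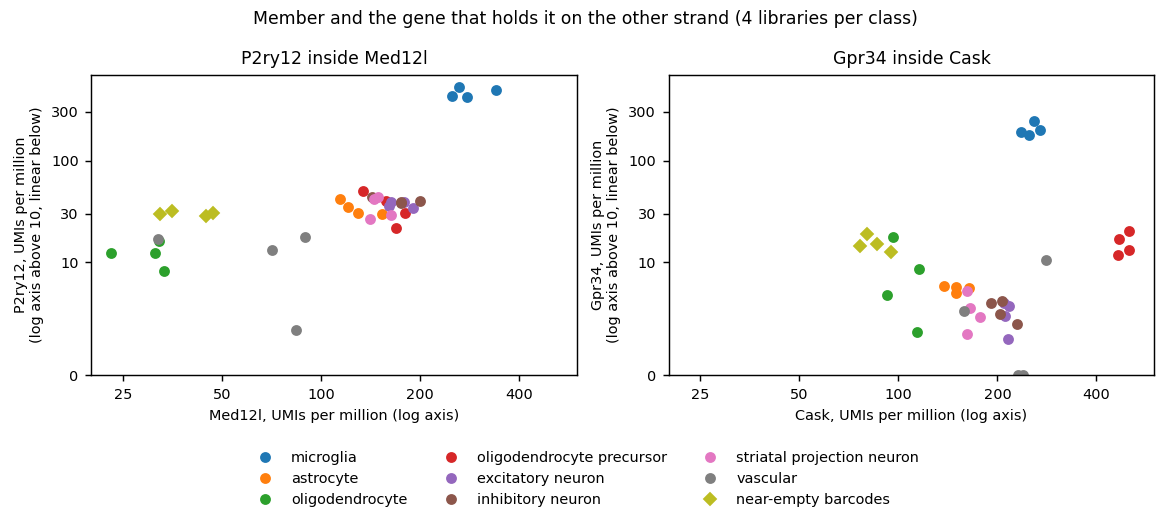
Levels of P2ry12 against Med12l and of Gpr34 against Cask in UMIs per 1000000 (log axes, the vertical linear below 10); each point is 1 class in 1 library. Outside microglia, P2ry12 is lowest in oligodendrocytes and vascular cells, where Med12l is also low, and the microglia-like points stand apart at the top of both panels.

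The other members had lesser overlaps. Gpr34 (chrX:13632089-13640858, plus strand) lies inside Cask, which is on the minus strand, with no exon overlap. Its next level was in oligodendrocyte precursors, 15.5 ± 3.84 CPM, the class with the most Cask, 484 ± 19.9 CPM, against 253 ± 14.2 in microglia-like nuclei. Over the same 28 sums, Gpr34 and Cask gave r of 0.17. Cx3cr1 (chr9:119901616-120069879, minus strand) spans or touches 9 other genes in the annotation, of which Wdr48, at 29.3 CPM, was the most counted in microglia-like nuclei. Csf1r (chr18:61100598-61132149, plus strand) overlaps Hmgxb3, at 34.9 CPM. Siglech (chr7:55768178-55778925, plus strand), Selplg (chr5:113818536-113832644, minus strand), Tmem119 (chr5:113793729-113800516, minus strand) and Sall1 (chr8:89027235-89044162, minus strand) overlap no annotated gene.

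Single nuclei were compared at 500 UMIs each, at the 15% limit. The reason was that median depth was 542.5 to 810 UMIs in microglia-like nuclei and 1870 to 3374 in excitatory neurons. By library the microglia-like median was 731, 810, 546.5 and 542.5 UMIs, and thinning left out 0, 0, 183 and 152 microglia-like nuclei. All of those left out thus came from PE-high EV libraries. The knee used in calling nuclei was also lower there (574, 839, 406 and 423 UMIs in the 4 libraries). After thinning, 66.7% to 72.7% of microglia-like nuclei had a UMI of any of the 9 genes, against 3.30% to 4.0% of excitatory neurons (1476 nuclei kept and 335 left out, and 9808 kept and 40 left out); without thinning the shares were 78.9% to 90.5% and 12.2% to 16.2%. At least 3 of the 9 genes were found in 11.4% to 17.5% of thinned microglia-like nuclei and in 0 of 9808 excitatory neurons, which allows a share of excitatory neurons with such UMIs at this depth of up to 0.105% to 0.198% by library. Without thinning these shares were 17.2% to 36.3% and 0 to 0.0695%. P2ry12 was seen in 18.2% to 27.9% of microglia-like nuclei and 2.10% to 2.24% of excitatory neurons, and Siglech in 17.7% to 23.9% and 0.0660% to 0.113%. Tmem119, at 2.70% to 4.57%, and P2ry13, at 2.19% to 4.38%, were found in few nuclei at this depth, so a nucleus with 0 UMIs does not show that it lacks either.

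The microglia-like cluster was not uniform in the 9 genes. When it was clustered again without the members, 66 nuclei (16, 18, 20 and 12 by library) carried 6 of 6 border macrophage markers, with Mrc1 and F13a1 in the lead, and held 657 CPM of the 9 genes together (95% Poisson interval 469 to 894), against 3430 CPM (3317 to 3547) in the 1565 nuclei left after also setting aside nuclei rich in RNA of other classes, described next. These intervals cover counting error only. By library the 9 genes held 1502, 326, 609 and 351 CPM there, PE-low EV replicate 1 being the highest with 20 of the 40 UMIs, against 3847, 3232, 3250 and 3402 CPM. P2ry12 had 3 UMIs in the 66 nuclei, 49.2 CPM (10.2 to 144) against 658. Tmem119 and Sall1 had 0 UMIs, which against a floor of 3 counts over the group puts them at least 2.29-fold and 3.38-fold lower than in those 1565 nuclei. Csf1r, which border macrophages also use, held 279 CPM on 17 UMIs against 501. Cx3cr1 held 98.5 CPM on 6 UMIs against 533, and all 6 came from PE-low EV replicate 1. P2ry13 also had 3 UMIs, 49.2 CPM against 73.7, inside the interval of 10.2 to 144.

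A further 374 nuclei lay in 3 subclusters rich in RNA of other classes. The largest, 265 nuclei with a median of 2028 UMIs, held 3877 CPM of neuron markers, and the 78 and 31 nuclei of the other two held 10359 CPM of oligodendrocyte markers and 11987 CPM of astrocyte markers. The 9 genes together stood at 1086 CPM in these 374 nuclei, and each of the 9 lay between 12.6 (Tmem119) and 233 (P2ry12) CPM. A subcluster of 153 nuclei led by the inflammatory genes Tnf, Cd83, Ccl12 and Il1b held 3090 CPM of the 9 genes together (95% Poisson interval 2765 to 3443), against 3470 in the remaining 1412 nuclei; P2ry12 was at 565 and 669 CPM. Membership of a subcluster was set on the genes of these same nuclei, so these are descriptions without a test.

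The 9 genes were lowest, in 3 of the 4 libraries, in nuclei with the smallest share of mitochondrial UMIs, and the step lay between the first range and the rest. In nuclei with at most 3%, the 9 genes together held 1428, 1721, 694 and 1057 CPM. In nuclei above 3% to 5% they held 2890, 2986, 1849 and 2399 CPM. All 4 libraries were higher in the second range. Above 5% to 10% the levels were 2880, 3126, 2325 and 2836 CPM, above 10% to 15% 2734, 2322, 2792 and 3021 CPM, and above 15% 2354, 1383, 2389 and 1850 CPM. They showed no common direction from the second to the fourth range, and all 4 libraries were lower in the last range than in the fourth.

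Nuclei above 3% to 15% were compared with those of at most 3% within libraries (edgeR quasi-likelihood, 4 libraries, adjusted p under 0.1). Of 4453 genes tested, 1683 passed (37.8%), of which 837 rose (18.8%) and 846 fell (19%). All 8 members tested rose, with log2 differences of 0.84 to 1.47, and all 9 were higher in all 4 libraries, as were 29.2% of genes tested. Siglech went from 255, 275, 120 and 163 CPM to 501, 594, 427 and 524 CPM, a log2 difference of 1.12 (SE 0.20, edgeR adjusted p = 4.2e-05). P2ry12 went from 345, 356, 120 and 195 CPM to 547, 616, 448 and 494 CPM, 0.84 (SE 0.20, edgeR adjusted p = 0.0011). Tmem119 went from 6.90, 57.4, 0 and 48.8 CPM to 90.7, 83.8, 54.0 and 84.8 CPM, 1.47 (SE 0.50, edgeR adjusted p = 0.022), and rests on 1, 5, 0 and 3 UMIs at the lower range. Cx3cr1 (0.85), Csf1r (0.84), Gpr34 (1.16), Selplg (1.01) and Sall1 (1.12) rose as well, with edgeR adjusted p between 0.00043 and 0.0081. Their median was 1.06 against 0.05 over all genes tested. P2ry13 was too low to be tested. Without PE-low EV replicate 1, 1019 of 4036 genes passed and Sall1, at 0.94, did not.

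Nuclei rich in other classes' RNA were unequally spread over these ranges: they made up 64.9% of the 174 nuclei at most 3% and 4.12% of those above 15%. By library their share at most 3% was 85.2%, 36%, 88.9% and 60%, and neuron markers stood at 3455, 2789, 4401 and 2993 CPM there. Without the 3 subclusters, a comparison added after the data were seen that left 9, 32, 2 and 18 nuclei at most 3%, 10 of 2484 genes and 0 of 9 members passed; the members then lay between -0.12 (Tmem119) and 0.78 (Gpr34) on the log2 scale with edgeR adjusted p of 0.992, and their median was 0.27 against 0.22 over all genes tested. Measured against the fixed microglial markers, the 9 genes had, as means of the libraries, 45.7, 47.2, 47.3, 49.6 and 38.7 member UMIs per 100 marker UMIs in the ranges 0 to 3, 3 to 5, 5 to 10, 10 to 15 and over 15%. At most 3% this ratio was 64.5, 49.8, 33.0 and 35.7 by library, both PE-low EV libraries being higher, and above 3% to 5% it was 54.0, 42.5, 44.9 and 47.4, with overlap.

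**Figure D3:**
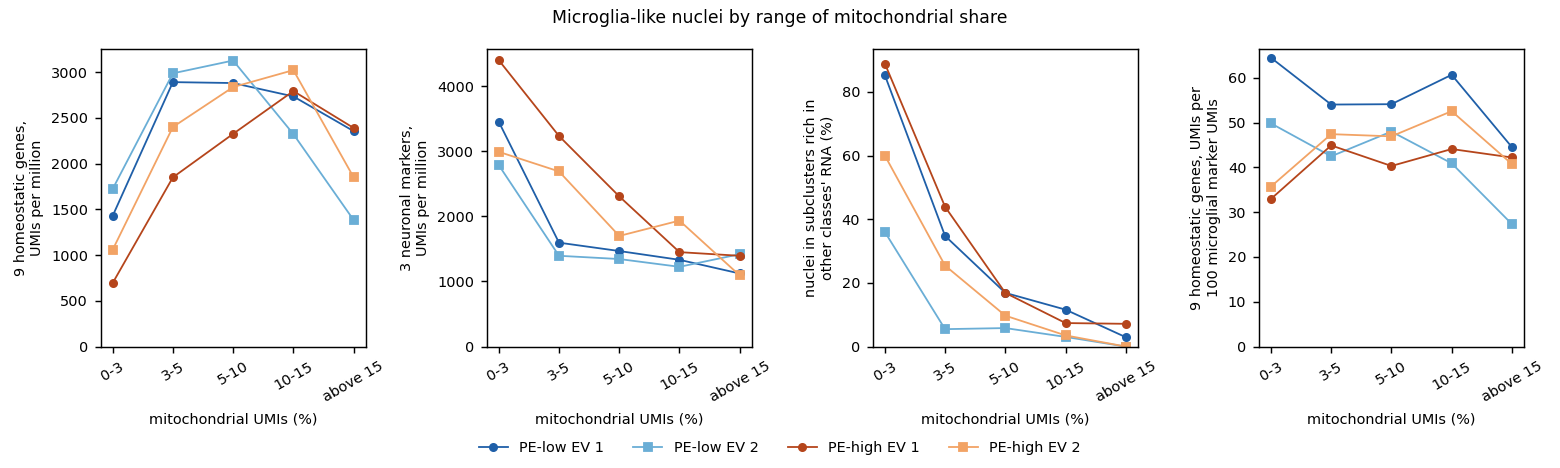
Microglia-like nuclei by range of mitochondrial share: the 9 genes and the neuronal markers in UMIs per 1000000, the share of nuclei in subclusters rich in other classes' RNA in percent, and the 9 genes per 100 microglial marker UMIs; each line is 1 library. From the first range to the second, the 9 genes go up while the neuronal markers and the subcluster share go down in all 4 libraries.

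The comparison of PE-high EV with PE-low EV at a limit of 3% rests on few nuclei, 61 and 50 in the PE-low EV libraries and 18 and 45 in the PE-high EV libraries. P2ry12 had 50, 31, 5 and 12 UMIs, or 345, 356, 120 and 195 CPM. Cx3cr1 had 40, 19, 8 and 10 UMIs, or 276, 218, 191 and 163 CPM, and Csf1r 27, 30, 3 and 10 UMIs, or 186, 344, 71.8 and 163 CPM. Siglech had 37, 24, 5 and 10 UMIs and Selplg 22, 20, 3 and 8. Both PE-high EV libraries lay below both PE-low EV libraries for all 5 members that passed the filter on low counts. The same held for 18.2% of the 1603 genes that passed it. Selplg, at 152, 230, 71.8 and 130 CPM, reached the level asked by the filter only in the PE-low EV libraries. Its direction was therefore set by the filter and adds no support. Of the 4 members under the filter, P2ry13 had 5, 5, 1 and 2 UMIs and Gpr34 17, 9, 3 and 6. In CPM these 2 did not overlap between the groups, and Tmem119 and Sall1 did. The 18.2% covers only genes that passed the filter, so it is no background for these 4, and they add no support.

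On edgeR's test 0 of 1603 genes passed (0%), 67 (4.18%) had an unadjusted p under 0.05, 1 member (P2ry12) among them, and DESeq2 called 0. Leaving out each library in turn leaves 1 library in a group, so only sizes are given for those fits. The median of the 5, 4, 6 and 6 members then tested was -1.15, -0.77, -0.65 and -1.26, in the order of the library left out. With all 4 libraries only 5 members were tested. Their log2 differences were -1.11 for P2ry12 (SE 0.42), -1.06 for Csf1r (SE 0.52), -0.88 for Siglech (SE 0.42), -0.82 for Selplg (SE 0.52) and -0.52 for Cx3cr1 (SE 0.41), all with an edgeR adjusted p of 0.958. Their median of -0.88, with Selplg included, stood beside -0.01 over all genes tested. For these same 5 members the median was -0.42 at a limit of 5%, -0.20 at 10%, -0.15 at 15% and -0.11 without a limit, where all 9 could be tested and had medians of -0.39, -0.20, -0.13 and -0.11. At 3% the nuclei of the 4 libraries also differed in median depth, 2305, 1035, 2510.5 and 1184 UMIs, and in the share from subclusters rich in other classes' RNA given above; their part in the difference was not tested.

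**Figure D4:**
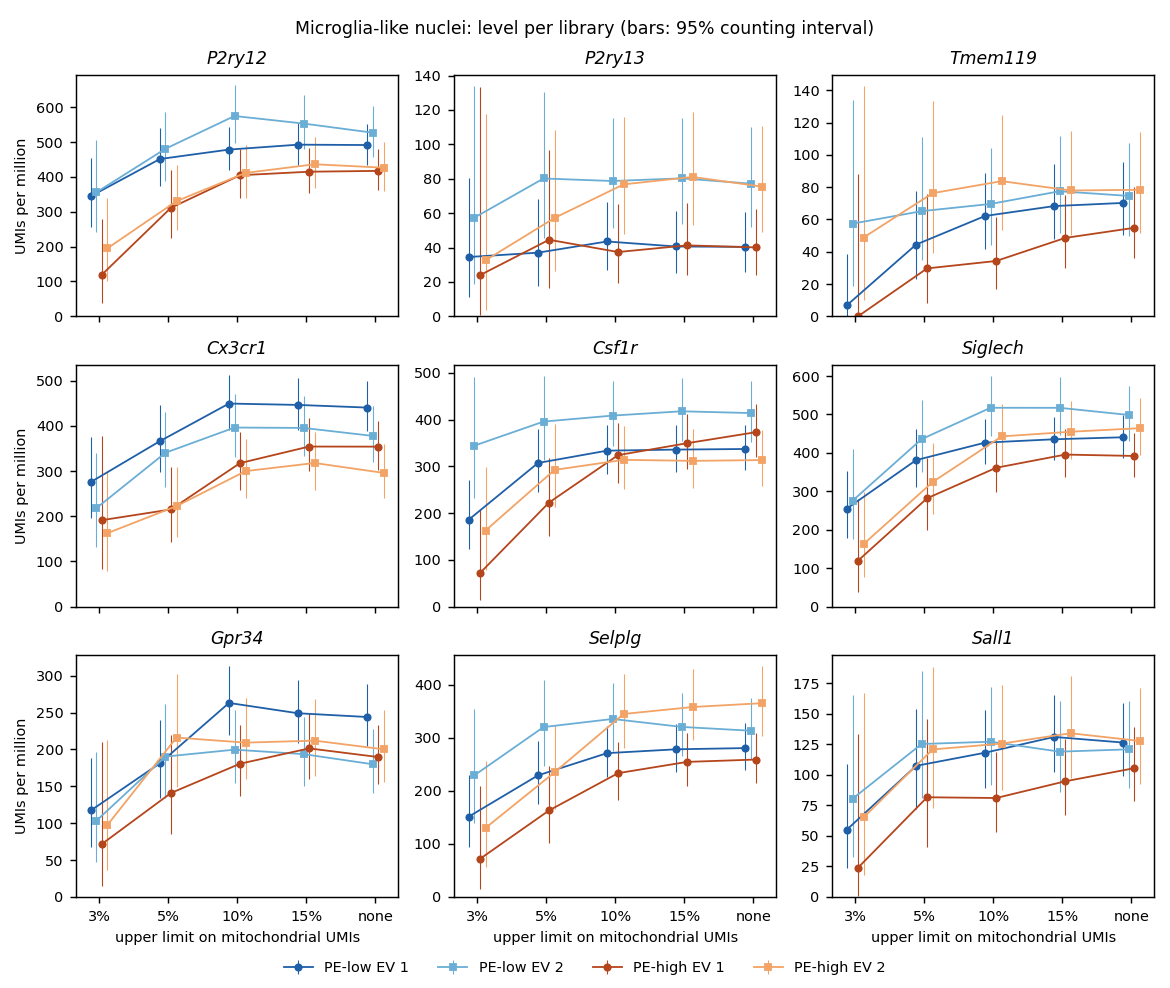
Level of each gene in microglia-like nuclei, in UMIs per 1000000, at upper limits of 3, 5, 10 and 15% mitochondrial UMIs and with none; points are the 4 libraries and bars 95% counting intervals. Every library is higher at 15% than at 3% for each gene. The intervals at 3% are the widest, except for Tmem119 in PE-low EV replicate 1.

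At the 15% limit, 503, 366, 516 and 426 nuclei entered. Their median depth was 731, 810, 546.5 and 542.5 UMIs, both PE-low EV libraries being the deeper. Neuron markers stood at 2015, 1698, 2541 and 2269 CPM in these nuclei, both PE-high EV libraries being the higher. By markers of other classes, an estimated 62.4%, 49.8%, 59.5% and 48.3% of their UMIs were near-empty RNA, with overlap between the groups. The part of depth and of such RNA in the differences below was not tested. P2ry12 lay at 493, 553, 415 and 436 CPM, and Cx3cr1 at 446, 396, 354 and 318 CPM, with both PE-high EV libraries below both PE-low EV libraries. These were 2 of the 9 members, and 18.7% of 7433 genes showed the same. Csf1r lay at 336, 418, 349 and 312 CPM, Siglech at 435, 517, 396 and 455 CPM, Selplg at 279, 321, 255 and 358 CPM and Gpr34 at 249, 194, 201 and 212 CPM. Sall1 at 131, 119, 94.6 and 134 CPM, Tmem119 at 68.3, 77.5, 48.5 and 77.9 CPM and P2ry13 at 40.6, 80.2, 41.3 and 81.0 CPM overlapped between groups as well.

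In edgeR, 0 of 7433 genes passed (0%), 349 (4.7%) had an unadjusted p under 0.05, no member among them, and DESeq2 called 0. The members lay between -0.30 (Cx3cr1, SE 0.22) and 0.06 (P2ry13, SE 0.41), with edgeR adjusted p of 0.986 to 0.997, and their median was -0.13 against -0.01 over all genes tested. Leaving out each library in turn leaves 1 library in a group, so only sizes are given for those fits. The members' median was then -0.24, -0.14, -0.06 and -0.22, in the order of the library left out. The change in the PE effect from nuclei of at most 3% to nuclei above 3% to 15% was itself tested, and 3 of 5671 genes (0.0529%) and 0 of the 9 members passed; the members' differences ran from -0.37 (Tmem119) to 0.89 (Selplg), with a median of 0.71 against 0.10 over all genes and an edgeR adjusted p of 0.999. Among all genes tested, 286 (5.04%) had an unadjusted p under 0.05, no member among them, and DESeq2 called 0. The larger differences at 3% are therefore not shown to differ from those at higher shares.

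**Figure D5:**
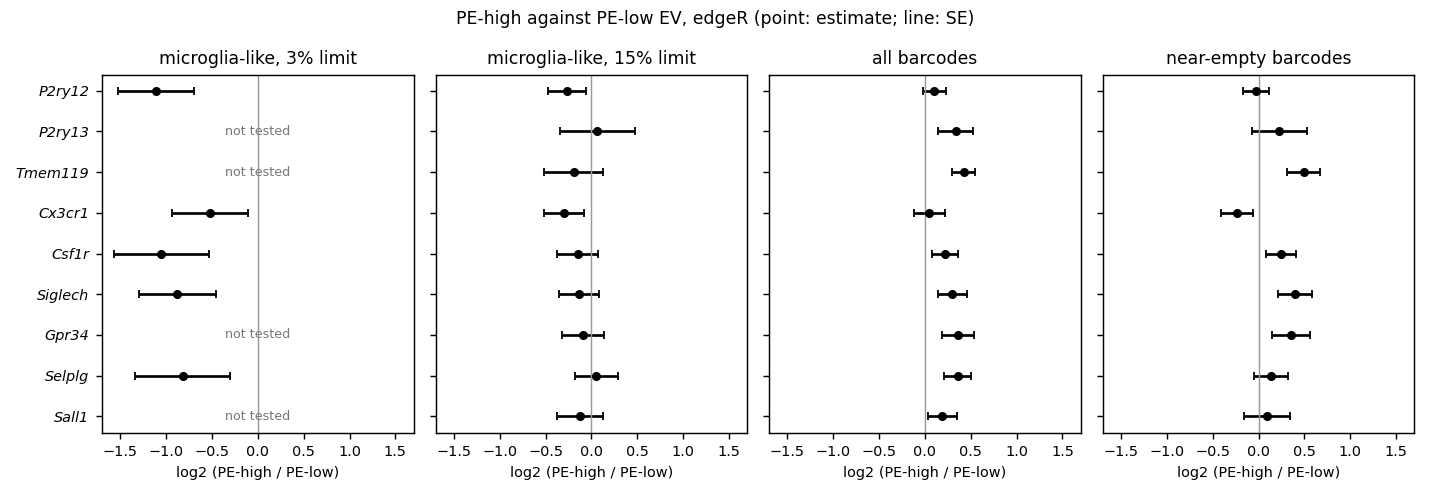
Log2 difference, PE-high EV over PE-low EV, of each member in microglia-like nuclei at 2 limits, in all barcodes and in near-empty barcodes; points are edgeR estimates and bars the SE. The 5 estimates at 3% are below 0, 7 of 9 at 15% are below 0, all 9 in all barcodes are above 0, and 7 of 9 in near-empty barcodes are above 0.

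Sums over all barcodes of a library cannot tell fewer microglia from less RNA per cell. They also depend on the mix of other classes. Without a mitochondrial limit, oligodendrocytes made up 9.99%, 14.96%, 7.72% and 8.38% of called nuclei after the gene filters. Unnamed classes made up 15.07%, 7.93%, 26.05% and 11.98%, and microglia-like nuclei 4.53%, 4.71%, 4.42% and 4.29%. The part of this mix in the differences below was not tested. In these sums Tmem119 lay at 8.32, 7.88, 10.6 and 10.2 CPM and Selplg at 13.6, 10.8, 15.6 and 14.4 CPM. Both genes were higher in PE-high EV, and P2ry12 overlapped, at 40.0, 33.0, 38.6 and 36.4 CPM. In PE-high EV libraries 4 of the 9 (P2ry13, Tmem119, Gpr34 and Selplg) lay above both PE-low EV libraries, and 9.92% of 19225 genes did; no member lay below, as 23.1% of genes did. In edgeR 0 genes passed (0%), and 880 (4.58%) had an unadjusted p under 0.05, Tmem119 and Selplg among them. DESeq2 called 58 genes and gave none of the members an adjusted p. In edgeR the members ran from 0.05 (Cx3cr1) to 0.42 (Tmem119, SE 0.13), with a median of 0.30 against 0.0039 over all genes. Their edgeR adjusted p was 0.9999. Without PE-low EV replicate 1, 2434 of 19380 genes (12.6%) and 6 of the 9 members (P2ry13, Tmem119, Csf1r, Siglech, Gpr34 and Selplg, all higher) passed; without PE-low EV replicate 2, 713 genes and 0 members passed. The share of mitochondrial UMIs in all barcodes was 10.4%, 9.77%, 13.1% and 9.86%.

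In near-empty barcodes, Tmem119 lay at 12.2, 13.6, 17.5 and 16.9 CPM and Siglech at 12.4, 13.5, 17.3 and 14.8 CPM, both above in PE-high EV. P2ry12 at 32.2, 30.2, 29.7 and 28.4 CPM and Cx3cr1 at 30.1, 26.6, 25.4 and 20.2 CPM were below. Of 14159 genes, 32.7% had no overlap between groups, 9.61% with PE-high EV above and 23.1% with it below. In edgeR 0 genes passed (0%), and 657 (4.64%) had an unadjusted p under 0.05, Tmem119 among them. DESeq2 called 30 genes and gave none of the members an adjusted p. Tmem119 had 0.49 (SE 0.18, edgeR adjusted p = 0.950) and the members' median in edgeR was 0.23 against 0.01. Leaving out each library in turn leaves 1 library in a group, so only sizes are given for those fits. The members' median was then 0.36, -0.0098, 0.063 and 0.37, in the order of the library left out.

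The wider microglial programme was read from 3 lists. In edgeR, of 12 other homeostatic genes, 0 passed between the groups at the 15% limit and 10 were higher in nuclei above 3% to 15%, where 18.8% of all genes tested were; Tgfbr1, a receptor of transforming growth factor beta, lay at 1149, 1217, 1017 and 1418 CPM and rose by 0.87 on the log2 scale in the second comparison (SE 0.16), Itgb5, an integrin, by 1.11 (SE 0.20), Lpcat2, a lipid acyltransferase, by 0.81 (SE 0.22), and Entpd1, the ectonucleotidase CD39, by 0.95 (SE 0.20). Of 8 transcription factors, 0 passed between groups and 6 were higher above 3%, against the same 18.8%, among them Runx1 (1.19, SE 0.18), Ikzf1 (1.14, SE 0.20) and Mef2a (0.78, SE 0.15), while Mef2c, which neurons also use, had -0.06 (SE 0.15). Runx1 spread widely between libraries, at 376, 1369, 602 and 664 CPM. Of 6 ligands and purine enzymes, 3 were tested, 0 passed between groups and Entpd1 alone rose above 3%; Cx3cl1 had 0.33 (SE 0.32), Tgfb1 -0.08 (SE 0.36), and Il34, with 3 to 8 UMIs, was not tested. Without the subclusters rich in other classes' RNA, 0 of 11, 0 of 8 and 0 of 3 tested genes of the 3 lists passed in edgeR, and 10 of 2484 genes did in all.

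By Pearson's r over 36 sums of class and library, the 5 genes most like the mean of the 9 on the log2(CPM + 1) scale, among 6771 compared, were Vav1 (0.958), Nlrp3 (0.955), Cd37 (0.955), Gm46224 (0.954) and Rhoh (0.952). The members' own r ran from 0.642 (Sall1) to 0.954 (Selplg), with P2ry12 at 0.718. These sums share libraries and depth, and the values describe likeness of level only.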

How the data were processed

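The authors sequenced nuclei of brain tissue sections with a 3′ droplet assay. They deposited raw counts of UMIs per gene and barcode, 1 matrix per library, with barcode and feature lists as names. Per the labels, Cell Ranger 7.1.0 and mm10 were used. Whether introns and strand were counted is not given in the sources used here. Barcodes were called as nuclei from the knee and, at 500 or more UMIs, from a test against near-empty barcodes (false discovery rate 0.01). Nuclei with 200 to 2500 genes were kept for the sums, with mitochondrial limits of 3, 5, 10 and 15% and none. Python 3.11.15, scanpy 1.11.5 and leidenalg 0.10.2 were used for clustering (2000 variable genes, 30 components, resolution 0.8), with the members and mitochondrial genes left out. The naming rules for clusters were set once the clusters were known, and revised once. The members and lists were chosen with earlier results of these data known. Named genes were the 9 members, genes overlapping them, at most 4 of each list by UMIs and the 5 most alike.

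Counts were summed per library and tested with edgeR 4.0.16 (limma 3.58.1, R 4.3.3), filtered on low counts, with Benjamini-Hochberg adjusted p under 0.1; p-values measure the spread between these libraries. DESeq2 1.42.0 was an alternative. Intervals are 95% Poisson intervals (scipy 1.17.1) and cover counting error only, and depth was 29472021 to 43272337 UMIs per library. The fits were tested on simulated data. Positions are GENCODE on GRCm38.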

Additional observations from a re-analysis of the deposited data

Results flagged for a closer look

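Between nuclei above 3% to 15% mitochondrial UMIs and nuclei of at most 3%, the effect of PE differed for 3 genes by an interaction term in edgeR; none is one of the 9 genes, and they are named because they were the only ones to pass, after their values were seen. Mrc1, a mannose receptor of border macrophages, had a difference of 8.48 (SE 1.74, edgeR adjusted p = 0.0022), with 0, 22, 0 and 0 UMIs in the 4 libraries (in the order used above) at 3% and 16, 36, 59 and 47 above it. Rbpj, the nuclear effector of Notch signalling, had 3.19 (SE 0.55, edgeR adjusted p = 4.9e-05), with 9, 68, 3 and 4 UMIs at 3% and 35, 97, 144 and 101 above it. Aoah, an acyloxyacyl hydrolase, had 5.20 (SE 1.06, edgeR adjusted p = 0.0022), with 0, 31, 1 and 0 UMIs at 3% and 1, 23, 34 and 27 above it. At 3% most UMIs of each lay in PE-low EV replicate 2, which also held all 4 of the border macrophage-like nuclei at that limit. DESeq2 called none of the 3. Leaving out 1 library at a time leaves 1 library in a group, so only sizes are given for those fits. The differences then ran from 2.11 to 8.95 for Mrc1, 2.09 to 3.66 for Rbpj and 0.859 to 9.56 for Aoah.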

How the results depend on the processing

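Of 484 values of the members under other settings, 445 kept direction and side of the threshold, 24 changed sign, 9 lost and 6 gained a call. A value without an adjusted p was counted as not called. The 6 gained calls came from fits that left 1 library in a group, and carry no weight. In the PE comparison at 3%, genes called went from 0 to 2 without the count filter and 1 with near-empty RNA subtracted, and Selplg turned to 0.055 at 15% and 0.093 with no limit. At 15%, 15 genes passed without the filter, 11 with a replicate block and 2 without the subclusters rich in other classes' RNA (added after the data were seen); P2ry13 turned to -0.11 with the marker gate, Selplg to -0.072 and Sall1 to 0.12 with equal depth, and Sall1 to 0.069 without those subclusters. In all barcodes DESeq2 called 58, no filter 1 and the block 2; in near-empty barcodes DESeq2 called 30, no filter 122, the block 81 and barcodes of 20 to 100 UMIs 1. Across mitochondrial ranges DESeq2 called 1000 genes, and without those subclusters 10 genes and 0 members passed, with Tmem119 at -0.12; DESeq2 gave it no adjusted p. For the difference of the PE effect DESeq2 called 0. The cause was not tested.

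Leaving out 1 library at a time, genes called ran from 0 to 13 at 3%, 1 to 222 at 15%, 0 to 2434 in all barcodes (members 0 to 6), 0 to 313 in near-empty barcodes, 1019 to 1531 across ranges, and 0 to 10 for the difference. Member values that changed sign ran, at 15%, from -0.45 to 0.54 for P2ry13, -0.53 to 0.10 for Tmem119, -0.27 to 0.14 for Gpr34, -0.19 to 0.26 for Selplg and -0.36 to 0.092 for Sall1; in all barcodes from -0.037 to 0.26 for P2ry12 and -0.15 to 0.27 for Cx3cr1; in near-empty barcodes from -0.11 to 0.049 for P2ry12, -0.039 to 0.59 for P2ry13, -0.0098 to 0.31 for Selplg and -0.12 to 0.35 for Sall1; and for the difference from -2.21 to 4.96 for Tmem119. The replicate block called 0 genes at 3%; the numbers are shared labels only (2 pairs, correlation of deviations 0.12, 0.04, 0.13 and 0.11), so the block is not a pairing by source. At 3%, with 61, 50, 18 and 45 nuclei, 4 members were too low to be tested; with the marker gate, with equal depth and without the subclusters rich in other classes' RNA no member could be tested there.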
